A study of Mus musculus with 2 samples.

Results

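The CXC chemokines described here are the 10 genes Cxcl1, Cxcl2, Cxcl5, Cxcl9, Cxcl10, Cxcl12, Cxcl13, Cxcl14, Cxcl16 and Pf4, chosen by gene symbol from 15181 genes named in 22 tables of single-cell RNA sequencing. Interstitial cells were taken from the ventricles of adult mice after myocardial infarction (MI), and each table sets 1 library against another within 1 cell population, 18 clusters and 4 fibroblast subclusters in all. The control library came from PostnMCM mice, which express tamoxifen-inducible Cre from Postn, a gene switched on in fibroblasts that become myofibroblasts. The second library came from Yapfl/fl;Wwtr1fl/+;PostnMCM mice, in which Cre is meant to remove both alleles of Yap and 1 allele of Wwtr1 (TAZ) from the same cells, so that immune cells should keep both genes. Both strains carried the R26-eGFP reporter and received chow with 0.4 g/kg tamoxifen citrate, from the time of MI until collection at 6 days by the labels (a later day in the study's methods). The number of hearts behind each library is not given in the sources used here.

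CXC chemokines are small secreted proteins that guide leukocytes through G protein-coupled receptors. Cxcl1, Cxcl2 and Cxcl5 attract neutrophils through Cxcr2, Cxcl9 and Cxcl10 are induced by interferon gamma and attract T cells through Cxcr3, Cxcl12 retains Cxcr4-bearing cells in stroma, Cxcl13 attracts B cells through Cxcr5, and Cxcl16 is a membrane-bound ligand of Cxcr6. Pf4 (platelet factor 4, Cxcl4) is stored in platelets and is also transcribed by resident tissue macrophages, and Cxcl14 is a homeostatic chemokine of epithelium and stroma. After MI the neutrophil attractants act in the early inflammatory phase, while fibroblasts are a main source of Cxcl12.

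The value used for each gene is the share of cells of a population with a value above 0 after the authors' SCTransform normalisation (called a count below), given as a percent for each library, and differences are in percentage points, depleted minus control. A share was called higher or lower in the library labelled depleted when the difference reached 10 points. With 1 library per group there was no test and no error, and cell numbers and depths are not stated in the tables, so every value describes these 2 libraries. The smallest share above 0 shows how coarse a table is. It was between 0.7% and 4.8% in subclusters 0, 3 and 5 of both libraries and 2.5% in the control library of subcluster 4, but 10% in the library labelled depleted of subcluster 4, where a call can rest on a single step. Cluster tables hold only genes that passed the authors' limits on fold change and on a share of 25% in either library, so a chemokine missing there has no value, while the subcluster tables hold 15059 genes without limits. From a share, fewer expressing cells and less RNA per cell cannot be told apart.

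The targeted genes were checked first. Yap1 was counted in 46.2%, 23.3%, 57.5% and 30.4% of control cells and in 56.2%, 43.5%, 40% and 47.6% of cells of the library labelled depleted in subclusters 0, 3, 4 and 5. It was thus higher in subclusters 0, 3 and 5 and lower in subcluster 4 only. Wwtr1 went from 81.4% to 90.6%, from 93.3% to 91.3%, from 80% to 60% and from 100% to 85.7%. Postn, which drives Cre, went from 25.5% to 28.1%, from 40% to 13%, from 10% to 20% and from 87% to 100%. Because the Yap1 share was higher in 3 of the 4 subclusters, the Yapfl/fl;Wwtr1fl/+;PostnMCM library is named here only by its label, on which all directions rest. Fibroblast markers Col1a1, Col1a2, Col3a1 and Dcn were counted in every cell of the 4 subclusters in both libraries. The other 2 fibroblast markers differed between libraries in some populations. Pdgfra, a receptor of resident fibroblasts, was at 38.6% and 71.9% in subcluster 0, 66.7% and 87% in subcluster 3 and 47.7% and 84% in cluster 5, and Lum, a matrix proteoglycan, was at 26.7% and 47.8% in subcluster 3 and 29.9% and 40.1% in cluster 5 (control, then depleted). In the remaining subclusters both lay within the limit, Pdgfra at 85% and 80% in subcluster 4 and 87% and 81% in subcluster 5, and Lum at 35.9% and 34.4% in subcluster 0 and equal in subclusters 4 and 5.

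Most of the family lies on chromosome 5, so that neighbouring genes can be compared. In the GENCODE annotation of GRCm39, the build the authors used, Cxcl5 (90907186 to 90909483), Pf4 (90918479 to 90922110), Cxcl1 (91039094 to 91040974) and Cxcl2 (91051730 to 91053797) lie on the plus strand, Cxcl9 (92469206 to 92475945) and Cxcl10 (92494497 to 92496748) on the minus strand, and Cxcl13 (96104810 to 96108927) on the plus strand. Cxcl12 lies on chromosome 6 (117144945 to 117158328), Cxcl16 on chromosome 11 (70344517 to 70352620) and Cxcl14 on chromosome 13 (56436352 to 56444603). Promoter sequences were found for 8 of the 10 genes in a RefSeq table of build GRCm38.p6, and the 250 bases before each RefSeq gene start matched GRCm39 exactly once, at the positions given. The RefSeq and GENCODE starts differ, so that the windows of Pf4 and Cxcl12 lie wholly inside the GENCODE genes and that of Cxcl14 with 239 of its 250 bases, while those of Cxcl2, Cxcl1 and Cxcl9 reach 28, 10 and 7 bases into them. The 4 shown are those of Cxcl2 and its neighbour Cxcl1, of Cxcl13, the member that the fibroblast cluster lists, and of Pf4, the member listed in the most tables. Capitals mark matches to an NF-kappaB consensus (Cxcl1 and Cxcl2) and to GGAATG, the motif bound by TEAD, the DNA-binding partner of YAP and TAZ (Cxcl13).
Cxcl1 (chr5:91038854-91039103, plus strand): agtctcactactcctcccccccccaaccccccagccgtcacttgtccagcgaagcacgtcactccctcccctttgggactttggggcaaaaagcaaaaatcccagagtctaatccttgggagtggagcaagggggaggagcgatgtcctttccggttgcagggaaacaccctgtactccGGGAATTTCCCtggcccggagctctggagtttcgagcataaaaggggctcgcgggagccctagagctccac
Cxcl2 (chr5:91051508-91051757, plus strand): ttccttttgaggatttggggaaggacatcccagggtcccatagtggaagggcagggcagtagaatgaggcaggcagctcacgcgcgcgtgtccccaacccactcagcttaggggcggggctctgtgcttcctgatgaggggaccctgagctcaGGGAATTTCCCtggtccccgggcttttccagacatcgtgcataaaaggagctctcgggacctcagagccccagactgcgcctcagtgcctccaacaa
Cxcl13 (chr5:96104548-96104797, plus strand): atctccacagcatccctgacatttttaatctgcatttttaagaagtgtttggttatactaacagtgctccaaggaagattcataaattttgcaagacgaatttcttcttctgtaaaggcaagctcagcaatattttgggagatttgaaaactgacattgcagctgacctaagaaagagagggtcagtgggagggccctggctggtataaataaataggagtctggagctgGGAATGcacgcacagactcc
Pf4 (chr5:90920044-90920293, plus strand): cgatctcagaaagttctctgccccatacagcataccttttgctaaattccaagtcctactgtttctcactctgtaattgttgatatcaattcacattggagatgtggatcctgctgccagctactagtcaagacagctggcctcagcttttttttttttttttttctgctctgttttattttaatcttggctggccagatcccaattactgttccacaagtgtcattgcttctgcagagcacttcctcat

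Cxcl1 and Cxcl2 shared a block of 14 bases, GGGAATTTCCCTGG, which starts 71 bases before the RefSeq gene start in Cxcl1 and 97 bases before it in Cxcl2. Of all 32536 different promoters of this length in the table, 3.92% held the NF-kappaB consensus on either strand, among the members Cxcl1, Cxcl2 and Cxcl10. TEAD's GGAATG stood in 12.6% of promoters and among the members in Cxcl13 alone. GAAANNGAA, the core of the interferon-stimulated response element, stood in 7.15% (Cxcl9, Cxcl10 and Cxcl14), and TTCNNNGAA, the interferon gamma-activated sequence, in 7.04% (Cxcl14). The Pf4 and Cxcl12 windows matched none of these 4 motifs. In Cxcl1, and likewise in Cxcl2, 2 matches to the NF-kappaB consensus overlap, shifted by 1 base. A match describes letters and no binding.

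Within fibroblasts, 9 of the 10 members have values, and Cxcl9 is in no subcluster table. Of 36 values (9 members in 4 subclusters), 7 were higher by at least 10 points, 9 were lower and 20 lay within that limit. In subcluster 0, 0 members were higher and 2 lower, where 10.8% of all 15059 genes were higher and 9.85% lower. For subcluster 3 the counts were 2 higher and 2 lower (13.1% and 17.1% of all genes), for subcluster 4 they were 3 higher and 4 lower (24.7% and 20.3%), and for subcluster 5 they were 2 higher and 1 lower (21.2% and 14.3%). The median difference of the 9 members was -3.4, -2.4, -2.5 and 0.0 points in subclusters 0, 3, 4 and 5, and 0.0 points over all genes in each. Together with fibroblast cluster 5, which lists 1 member, 8 values were higher and 9 lower, and after centring each table on its median gene the split was 5 higher and 9 lower. With only shares of at least 25% in either library kept, it was 2 higher and 8 lower. Members went both ways, and with at most 9 members per table these counts single out nothing about the family.

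**Figure D1:**
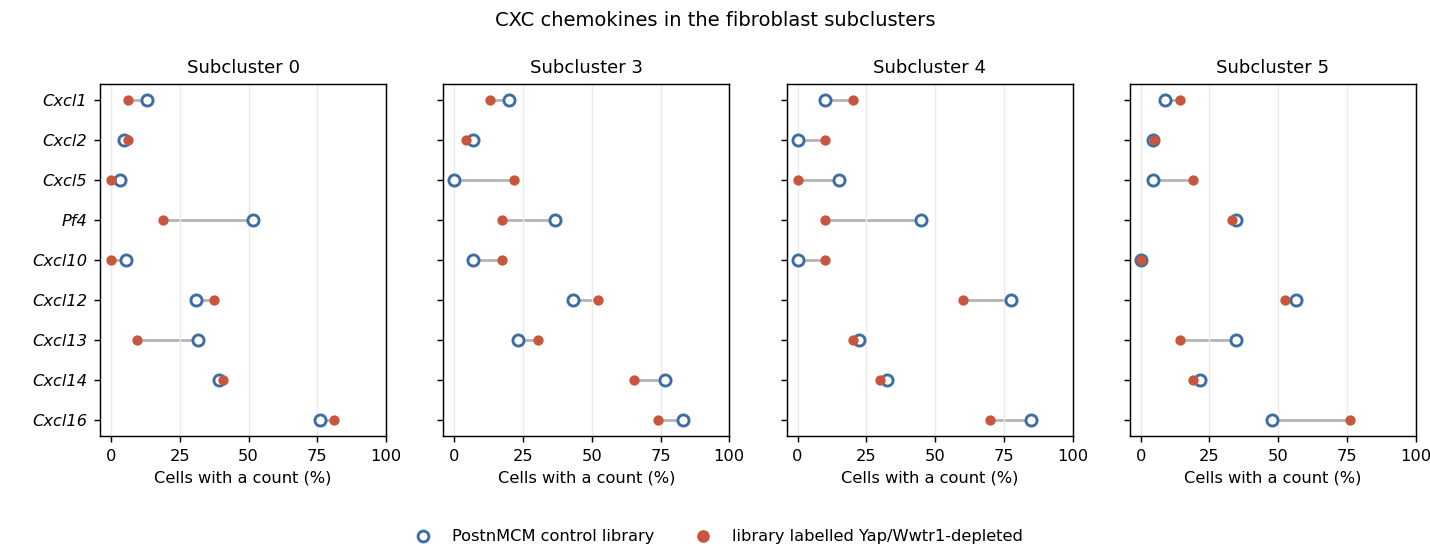
Percent of cells with a count (x axis) for 9 CXC chemokines in each of 4 fibroblast subclusters, with 1 open circle for the control library and 1 filled circle for the library labelled depleted. Pf4 is lower in subclusters 0, 3 and 4, Cxcl13 in subclusters 0 and 5, and Cxcl16 is higher in subcluster 5 (47.8% and 76.2%).

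**Figure D2:**
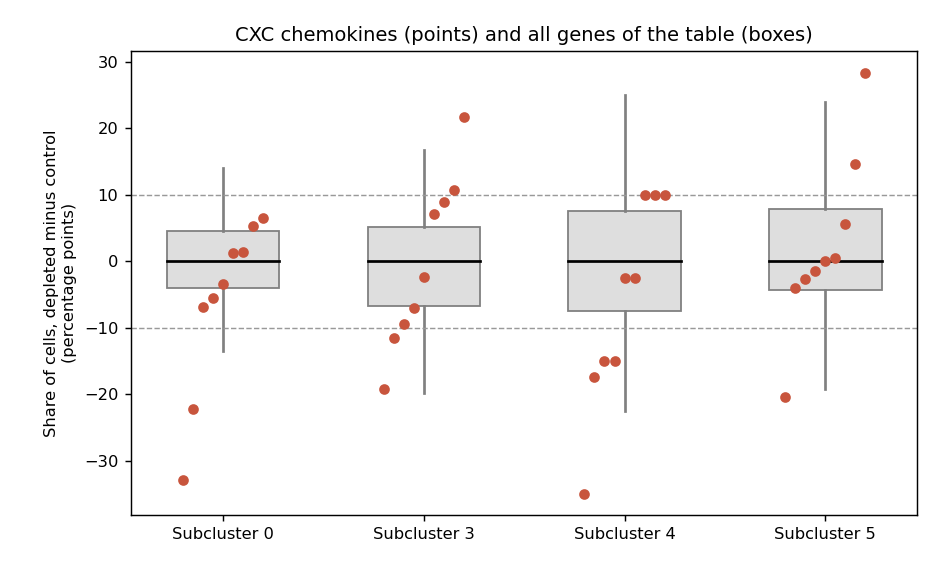
Difference in the share of cells (y axis, percentage points, depleted minus control) for the 9 members (points) and all 15059 genes (boxes from the 25th to the 75th percentile with the median, lines from the 5th to the 95th percentile) in each subcluster, with dashed lines at 10 points. Most members lie between the 5th and the 95th percentile of all genes, which are -13.5 and 14.1 points in subcluster 0 and -22.5 and 25 points in subcluster 4.

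Among the neutrophil attractants, Cxcl1 was counted in 13.1%, 20%, 10% and 8.7% of control cells and in 6.2%, 13%, 20% and 14.3% of cells of the library labelled depleted in subclusters 0, 3, 4 and 5. Its share was thus smaller in subclusters 0 and 3 and larger in subclusters 4 and 5, with only the single 10-point step of subcluster 4 reaching the limit. Centring on the median gene left 7.5 points for that step, and likewise for those of Cxcl2 and Cxcl10 in subcluster 4, which ended the calls. Cxcl2 was rare in fibroblasts, at 4.8%, 6.7%, 0% and 4.3% of control cells and 6.2%, 4.3%, 10% and 4.8% of cells of the library labelled depleted. Cxcl5, which also serves Cxcr2, differed most of the 3. It was counted in 3.4%, 0%, 15% and 4.3% of control cells and in 0%, 21.7%, 0% and 19% of cells of the library labelled depleted. Cxcl5 was therefore higher in the library labelled depleted in subclusters 3 (by 21.7 points) and 5 (by 14.7 points) and lower in subcluster 4 (-15.0 points). Where a library is at 0%, the tables do not state the depth that an upper limit needs.

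The interferon-induced Cxcl10 was counted in 5.5%, 6.7%, 0% and 0% of control cells and in 0%, 17.4%, 10% and 0% of cells of the library labelled depleted in subclusters 0, 3, 4 and 5. It reached the limit in subcluster 3 (by 10.7 points) and by 1 step in subcluster 4, and no cell of subcluster 5 had a count in either library. Among genes of the interferon gamma route, Jak2, a receptor-associated kinase, was counted in 55% and 80% of cells of subcluster 4 (control, then depleted). Irf1 was at 35% and 70% in subcluster 4, and Ifngr1, the ligand-binding chain, was at 55% and 40% there. Irf1 was also higher in subcluster 5 (30.4% and 52.4%), where Cxcl10 was at 0% in both libraries, and was at 46.2% and 37.5% in subcluster 0. Ifngr1, Ifngr2 and Jak2 lay within the limit in subclusters 0 and 5. In subcluster 3, Ifngr2 was higher (56.7% and 69.6%) and Ifngr1 lower (66.7% and 56.5%), while Jak2 was at 43.3% and 39.1% and Irf1 at 50% and 43.5%. Ifng is in no table.

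Cxcl12, the stromal ligand of Cxcr4, was counted in 31%, 43.3%, 77.5% and 56.5% of control cells and in 37.5%, 52.2%, 60% and 52.4% of cells of the library labelled depleted in subclusters 0, 3, 4 and 5. Subcluster 4, which the study links to matrifibrocytes (fibroblasts of the mature scar), had the largest share of these 4 and subcluster 0 the smallest in both libraries, with subclusters 1 and 2 not analysed here. The difference reached the limit in subcluster 4 alone, at -17.5 points, under 2 of its 10-point steps, and not on the log2 ratio (-0.36). Ackr3, a scavenging receptor of Cxcl12, was lower in subclusters 0 (21.4% and 9.4%) and 5 (26.1% and 9.5%), and at 10% and 13% in subcluster 3 and 27.5% and 30% in subcluster 4. Cxcr4 was higher in subcluster 3 (6.7% and 26.1%), where the T cell marker Cd3d was at 10% and 39.1% and the summed share of the 3 T cell markers listed was 23.4 and 73.8, and their part in the Cxcr4 value was not tested. Of the 10 receptors listed for the family, 6 have fibroblast values, and 1 of their 24 values was higher and 3 lower (17.6% and 15.6% of all values in the fibroblast tables). The third lower value was Cxcr2 in subcluster 0 (15.2% and 0%), and Cxcr2 is also a neutrophil marker.

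Cxcl13, the B cell attractant, was higher in the whole fibroblast cluster and lower in 2 of its subclusters. Fibroblast cluster 5 lists it at 27.9% of control cells and 38% of cells of the library labelled depleted, a difference of 10.1 points in a table where 34.5% of listed genes were higher and 31.6% lower by at least 10 points. This difference lies at the limit, and the call was lost on the log2 ratio (0.43) and log2 odds (0.66) of shares. In the subclusters its shares were 31.7% and 9.4% (subcluster 0), 23.3% and 30.4% (subcluster 3), 22.5% and 20% (subcluster 4) and 34.8% and 14.3% (subcluster 5). It was thus lower in subclusters 0 (-22.3 points) and 5 (-20.5 points), with the library labelled depleted ahead only in subcluster 3. Cluster 5 also holds subclusters 1 and 2, not analysed here. The study describes subcluster 1 as coming mainly from the library labelled depleted. It describes subcluster 2 as mainly from the control library and enriched for chemotactic genes, among them Cxcl13, Cxcl1 and Cxcl12. The subclusters were normalised again on their own, so cluster and subcluster shares are not on the same footing, and how the parts make up the whole was not tested.

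Cxcl14 varied more between subclusters than between libraries. It was counted in 39.3%, 76.7%, 32.5% and 21.7% of control cells and in 40.6%, 65.2%, 30% and 19% of cells of the library labelled depleted in subclusters 0, 3, 4 and 5, the same order in both libraries with subcluster 3, the proliferating fibroblasts of the study, at the top. Its difference in subcluster 3 was -11.5 points, a call lost on the log2 ratio (-0.23) and log2 odds (-0.81), and lay within the limit elsewhere. Cxcl16 was counted in 75.9%, 83.3%, 85% and 47.8% of control cells and in 81.2%, 73.9%, 70% and 76.2% of cells of the library labelled depleted. It was higher in subcluster 5, the secretory myofibroblasts of the study, by 28.4 points and lower in subcluster 4 (-15.0 points), the latter not on the log2 ratio (-0.28). Markers of the epicardium, the outer layer of the heart, were lower in the same subcluster 5, with a summed share of 4 markers of 139.1 in control and 28.6 in the library labelled depleted, and Wt1, an epicardial transcription factor, at 73.9% and 14.3%. Their sums were 335.8 and 334.4 in subcluster 0, 306.6 and 273.9 in subcluster 3 and 272.5 and 260 in subcluster 4, and in cluster 5 Upk3b was at 70.8% and 35.8%. The part of such cells in the subcluster 5 values of Cxcl16, Cxcl13 and Cxcl5 was not tested. Of the enzymes that process these ligands, Adam10, which sheds Cxcl16 from the membrane, was at 75% and 100% in subcluster 4, while Adam17 was at 73.9% and 47.6% in subcluster 5. Dpp4, which trims the ends of several chemokines, was at 17.5% and 40% in subcluster 4.

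Pf4 showed the largest differences of the family in the fibroblast subclusters. Fibroblast cluster 5 does not list Pf4, so its share over the whole cluster has no value. It was counted in 51.7%, 36.7%, 45% and 34.8% of control cells and in 18.8%, 17.4%, 10% and 33.3% of cells of the library labelled depleted in subclusters 0, 3, 4 and 5. The differences were -32.9, -19.3 and -35.0 points in subclusters 0, 3 and 4, and -1.5 points in subcluster 5, where the libraries were nearly equal. Beside it, macrophage markers had a smaller share in the library labelled depleted for 7, 5, 5 and 5 of 7 genes and neutrophil markers for 6, 6, 5 and 4 of 6 genes (subclusters 0, 3, 4 and 5), whatever the size. The 7 macrophage markers had summed shares of 409.1, 383.3, 402.5 and 334.7 in the control library and 250, 304.2, 310.0 and 228.6 in the library labelled depleted (subclusters 0, 3, 4 and 5). C1qb, a complement gene of resident macrophages, went from 82.8% to 37.5%, from 80% to 39.1%, from 77.5% to 10% and from 82.6% to 47.6%. Other macrophage markers had larger shares in the library labelled depleted (control, then depleted). Subcluster 4 had C1qa at 67.5% and 80% and Csf1r at 57.5% and 70%, both called higher. Subcluster 5 had C1qa at 60.9% and 66.7% and Csf1r at 13% and 23.8%, with Csf1r called higher. Subcluster 3 had Csf1r at 50% and 56.5% and Adgre1 at 16.7% and 21.7%, both within the limit. The summed shares of 6 neutrophil markers were 271.8, 266.8, 252.5 and 226.1 in control and 103.1, 130.4, 140.0 and 147.6 in the library labelled depleted. In subcluster 5 both marker sums were lower as well, while Pf4 was nearly equal. In cluster 5, normalised separately, S100a8 was at 32.6% and 5.9% and S100a9 at 49.7% and 9.1% (control, then depleted). In the library labelled depleted Cd68 was at 0% in subcluster 5, as were Cxcr2 in subclusters 0 and 3, Mmp9 in subcluster 0 and Retnlg in subcluster 4, and in the control library Cxcr2 was at 0% in subcluster 5. Of 6 platelet markers 5 were listed, with summed shares of 63.3, 33.3, 62.5 and 34.7 in control and 53.1, 47.7, 20 and 14.3 in the library labelled depleted. Itga2b, an integrin chain of the platelet lineage, was at 44.1%, 26.7%, 25% and 13% in control and 50%, 21.7%, 20% and 14.3% in the library labelled depleted. Ppbp, a CXC chemokine of platelets, was at 4.1%, 3.3%, 7.5% and 0% in control and 0%, 4.3%, 0% and 0% in the library labelled depleted. Gp1bb and Clec1b were at 0% in the library labelled depleted in subclusters 0, 4 and 5, and Gp9 in subclusters 4 and 5, while Gp9 and Clec1b were at 0% in the control library in subclusters 3 and 5. The part of free RNA or attached cells in the Pf4 difference was not tested.

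**Figure D3:**
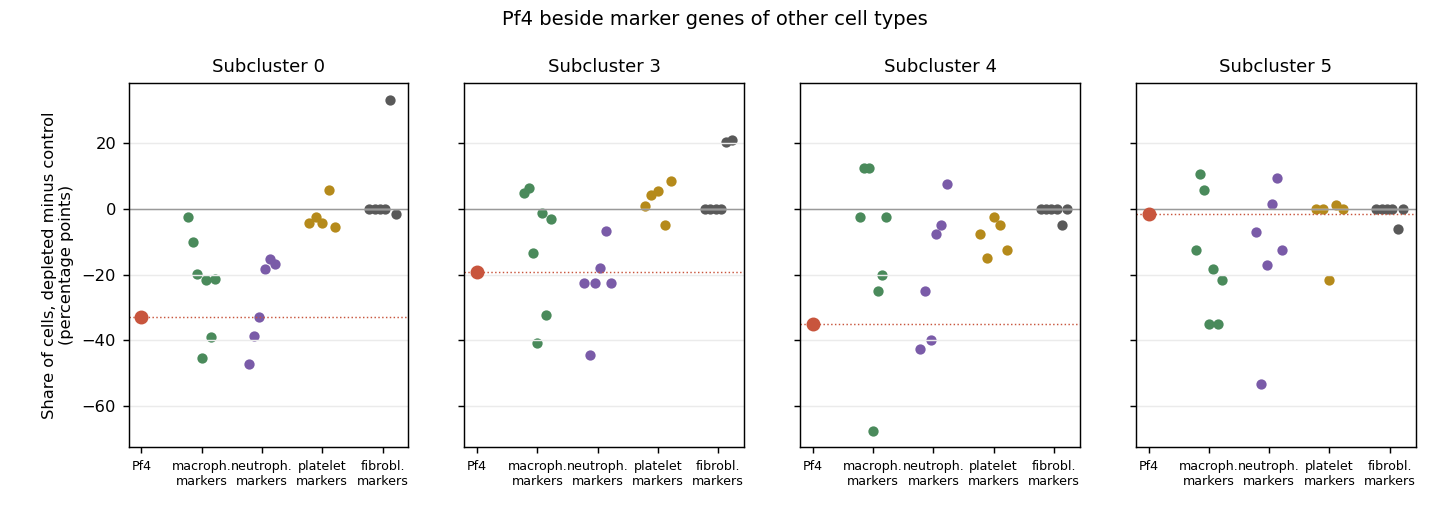
Difference in the share of cells (y axis, percentage points, depleted minus control) for Pf4 (dotted line) and for each listed marker of macrophages, neutrophils, platelets and fibroblasts, 1 point per gene, in 4 fibroblast subclusters. Most macrophage and neutrophil markers lie below 0 together with Pf4 in subclusters 0, 3 and 4, and Pf4 lies near 0 in subcluster 5 (-1.5 points).

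Pf4 was also the member listed in the most clusters outside fibroblasts, 6 of 17. In the macrophage/monocyte clusters it was counted in 88.2% of control cells and 79.7% of cells of the library labelled depleted (cluster 0), 42.9% and 36.8% (cluster 3), 27.4% and 28.2% (cluster 13) and 36.1% and 8.3% (cluster 11). Cluster 0 stood far above the others in both libraries. In cluster 0 the difference was -8.5 points, and -17.8 points after centring on the median gene, which is a call. Without centring it reached the limit in cluster 11 alone of these 4, at -27.8 points, where 44.2% of listed genes were lower by at least 10 points. The study places cluster 11 among macrophages, but Flt3, a dendritic cell gene, was counted in 50% and 75% of its cells, and all 5 macrophage markers listed there had smaller shares in the library labelled depleted (summed shares 259.7 and 152.1), as had all 6 neutrophil markers (269.4 and 99.9).

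Pf4 was counted in cells not known to make it. In neutrophils (cluster 1) the shares were 42.8% and 31.3%, a difference of -11.5 points where 21.5% of listed genes were lower, and no call on the log2 ratio (-0.44) or log2 odds (-0.72). In cluster 10, a T cell cluster with proliferation genes, they were 36.4% and 5.9%, a difference of -30.5 points where 34.6% of listed genes were lower, and the control library of that table has a smallest share of 9.1%. Of the macrophage list, 4 genes were listed in cluster 10, all with smaller shares (summed shares 154.6 and 83.3), among them Lyz2 (54.5% and 28%). Among the clusters, the control shares of Pf4 in neutrophils and cluster 10 lay in the range of macrophage/monocyte clusters 3, 11 and 13 (27.4% to 42.9%). Those of the fibroblast subclusters come from a separate normalisation and are not set beside them. Whether such shares of Pf4 are expression by the cell type was not tested. The tables state no median depths.

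**Figure D4:**
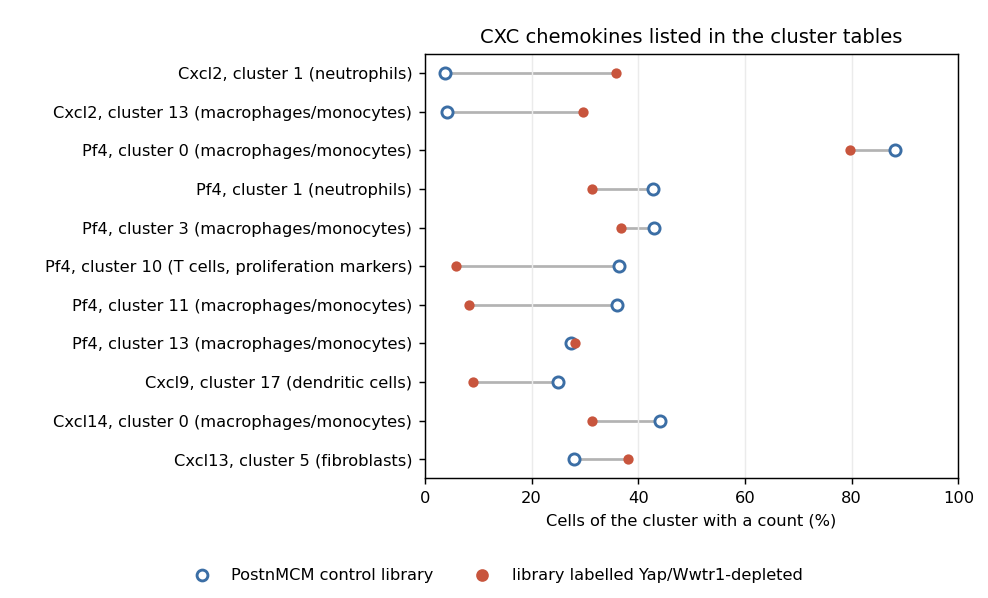
Percent of cells with a count (x axis) for each CXC chemokine that a cluster table lists, with the study's name of the cluster, open circles for the control library and filled circles for the library labelled depleted. Cxcl2 is higher in clusters 1 and 13, while Pf4 is lower in clusters 11 (-27.8 points) and 10 (-30.5 points) and nearly equal in cluster 13.

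Cxcl2, the neutrophil attractant that neutrophils and monocytes themselves make, had the largest difference of the family among the cluster tables, though not among the fibroblast subclusters. In neutrophils (cluster 1) it was counted in 3.7% of control cells and 35.9% of cells of the library labelled depleted, a difference of 32.2 points, where 22.1% of the listed genes were higher by at least 10 points. In cluster 13, a macrophage/monocyte cluster, the shares were 4.2% and 29.6%, a difference of 25.4 points, where 41.7% of listed genes were higher. The control shares of Cxcl2 in the fibroblast subclusters (0% to 6.7%) come from a separate normalisation and are not compared with these. A gene had to reach 25% in either library to be listed, so Cxcl2 entered these 2 tables through the library labelled depleted, and its level in the other 15 clusters has no value. Beside it, the neutrophil marker Retnlg was lower in cluster 1 (85.9% and 64.1%), as was S100a9 in cluster 13 (56.8% and 29.6%), where S100a8 was at 51.6% and 50.7% and Csf3r at 57.9% and 47.9%, and their part in the Cxcl2 difference was not tested.

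Genes of the NF-kappaB route, which induces Cxcl1 and Cxcl2, were listed in the same clusters. In cluster 1, Nfkbiz, an NF-kappaB cofactor, was counted in 21.3% and 36.7% of cells, Nfkbia, the feedback inhibitor, in 80.7% and 88.4%, and Il1b, an inducer, in 94.8% and 96.5%. In cluster 13, Nfkbia was at 54.7% and 74.6%, Il1b at 50.5% and 64.8%, and Zfp36, which destabilises cytokine transcripts, at 78.9% and 97.2%. Il1b was lower in clusters 3 (54.3% and 39.8%), 11 (68.8% and 47.9%) and 17 (45% and 27.3%). Over all 17 immune and other clusters, 6 of the 10 genes of this list were listed, with 14 of 30 values higher and 5 lower, where 34.1% of all values in these 17 tables were higher and 38.9% lower. Large differences were those of Nfkb1 in cluster 18 (9.1% and 47.1%, with 9.1% the smallest control share there), Zfp36 and Nfkbia in cluster 15 (40.6% and 77.3%, 18.8% and 50%), Tnfaip3, a brake on the route, in cluster 17 (30% and 0%), and Nfkbiz in cluster 3 (23.4% and 47.6%). Tnfaip3 was higher in clusters 15 (3.1% and 27.3%) and 9 (11.8% and 27.5%). In fibroblasts 10 of 37 values of the list were higher and 8 lower, where 17.6% of all values in the 5 fibroblast tables were higher and 15.6% lower. Nfkbia was higher in subcluster 4 (55% and 90%) and Nfkbiz in subcluster 5 (30.4% and 57.1%), and Zfp36 was lower in subcluster 5 (65.2% and 33.3%). Il1b went both ways, lower in subclusters 0 (34.5% and 6.2%), 3 (23.3% and 8.7%) and 5 (21.7% and 4.8%) and higher in subcluster 4 (22.5% and 50%). The neutrophil marker sums given with Pf4 were smaller in the library labelled depleted in all 4 subclusters, and their part in the Il1b values was not tested. Tnfaip3 was at 15% and 40% in subcluster 4.

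Cxcl9 and Cxcl14 were each listed once outside fibroblasts. Cxcl9 was counted in 25% of control cells and 9.1% of cells of the library labelled depleted in cluster 17, the dendritic cells, a difference of -15.9 points where 52.4% of listed genes were lower and the median gene differed by -13.6 points, so that centring left -2.3 points and no call. The smallest share above 0 in that library was also 9.1%, so its Cxcl9 value is 1 step. Its receptor Cxcr3 was at 60% and 63.6% in the same cluster. Cxcl14 was counted in 44.1% and 31.4% of cells of cluster 0, macrophages, a difference of -12.7 points where 19.9% of listed genes were lower and the median gene was 9.3 points higher, and the call was lost on the log2 ratio (-0.48) and log2 odds (-0.79) of shares. Col3a1, a fibroblast gene, was listed in 9 clusters outside fibroblasts and was lower in all of them, among them clusters 3 (41.5% and 26%), 12 (30.2% and 19%) and 17 (35% and 0%), and most of these reached 25% in the control library alone. It is not listed in cluster 0, and the part of fibroblast RNA in the Cxcl14 value was not tested. Over the 17 clusters the members had 10 values, 2 higher, 5 lower and 3 within the limit (34.1% higher and 38.9% lower over all values of these tables), and 2 higher and 3 lower on the log2 ratio of shares. Of the 7 values called, only 2 reached the 25% needed for listing in both libraries (Pf4 in cluster 1 and Cxcl14 in cluster 0), while 3 reached it in the control library alone (Pf4 in clusters 10 and 11 and Cxcl9) and the 2 of Cxcl2 in the library labelled depleted alone. Such values were listed through the library where the gene is high, so their counts support no direction. Cxcl1, Cxcl5, Cxcl10, Cxcl12, Cxcl13 and Cxcl16 are in none of these 17 tables.

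Among receptors outside fibroblasts, Cxcr4 was higher in neutrophils of cluster 1 (45.1% and 55.6%), B cells (20.7% and 35.5%), macrophages of cluster 12 (32.3% and 43%) and the unidentified cluster 15 (15.6% and 36.4%), and lower in neutrophils of cluster 18 (45.5% and 29.4%). Cxcr2 was lower in cluster 18 (81.8% and 70.6%) and cluster 11 (34.7% and 10.4%). Cxcr6, the receptor of Cxcl16, was at 59.6% and 50.9% in T cells of cluster 7. In all, 4 of the 10 receptors were listed, with 4 of 9 values higher and 3 lower (34.1% and 38.9% of all values in these tables). Genes of the interferon gamma route went both ways. Ifngr1 was at 100% and 62.9% in cluster 10, 15.6% and 31.8% in cluster 15 and 27.3% and 47.1% in cluster 18. Irf1 was at 45.5% and 19.9% in cluster 10 and 35.7% and 54.2% in cluster 8, Ifngr2 at 54.5% and 29.4% in cluster 18 and Jak2 at 33.3% and 18.6% in cluster 6. Adam10 in cluster 10 (54.5% and 30.1%) and Dpp4 in cluster 6 (44.4% and 20%) were lower. Cxcl3, Cxcl11, Cxcl15 and Cxcl17 are in no table.

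The genes nearest in pattern were taken over 8 shares (4 subclusters in 2 libraries), which share cells and libraries, so the Pearson r below only describes likeness among 10674 genes with a mean share of at least 10%. The pattern of Pf4 was nearest to S100a8, a neutrophil gene (r = 0.941), followed by Ythdf1 (0.926) and Gemin7 (0.921). Cxcl12 was nearest to Ttl (0.937), Adgrl2 (0.919) and Vegfc (0.916), a lymphatic growth factor, and Cxcl13 to Psmd12 (0.957), Zkscan5 (0.944) and Nkain1 (0.931). Cxcl14 was nearest to Mis18a (0.981), a centromere protein, Gla (0.981) and Dnph1 (0.978). Cxcl16 was nearest to Kbtbd7 (0.974), Natd1 (0.971) and Dmtf1 (0.966), and Cxcl1 to Preb (0.987), Mbtps2 (0.966) and Tpcn2 (0.963).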

How the data were processed

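Ventricular interstitial cells were sorted as viable cells and profiled by 10x Chromium 3′ V3.1 sequencing, in 1 library per genotype. The authors ran Cell Ranger 6.1.1 on a GRCm39 reference with added reporter sequences, aggregated both libraries without depth normalization, and used Seurat with SCTransform, clustering, and a second pass over the fibroblast cluster. No doublet caller is named in the code, so doublets may remain. The deposited tables give the fraction of cells with a value above 0 in each library, multiplied by 100 here and printed as a percent. The other deposited columns, average log2 fold changes and p-values of the authors' own comparison, were not used. Cluster names follow the study.

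Differences and log2 ratios of shares (pseudocount 1 point) were computed with Python 3.11.15 and pandas 2.3.3, over every gene of each table, and the code was tested on simulated data. A call needed 10 points. No test was made and no interval is given, because each group has 1 library and the tables give no cell numbers or depths. All 10 members are named; of each pathway list, up to 5 genes with the largest differences of at least 10 points in fibroblasts and likewise elsewhere, plus genes set beside a member, chosen after their values were seen. The members and lists were chosen with earlier results of these data known. Alternatives were other size limits, scales, centring, a share filter of 25% and leaving out subcluster 4. 1 item of the pathway lists is not reported here, and totals over all lists include it.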

Additional observations from a re-analysis of the deposited data

Results flagged for a closer look

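Cxcl5, Cxcl13 and Cxcl16 differed in direction between cell populations under the same contrast, each by at least 10 points both ways, and the difference between populations was not tested. Cxcl5 was 21.7 points higher in the library labelled depleted in fibroblast subcluster 3, at 0% of control cells, and -15.0 points in subcluster 4, where the library labelled depleted was at 0%. Cxcl13 was at 10.1 points in fibroblast cluster 5 and at -22.3 points in its subcluster 0, 2 values from separate normalizations, the first of them at the limit and no call on the log2 ratio or log2 odds of shares. Cxcl16 was at 28.4 points in subcluster 5 and at -15.0 points in subcluster 4, the latter no call on the log2 ratio. Values of subcluster 4 come in steps of 10 points in the library labelled depleted.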

How the results depend on the processing

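No called value of a member changed direction under any alternative scale, centring or size limit. In the 5 fibroblast tables the members had 8 values higher and 9 lower; a limit of 5 points gave 13 higher and 13 lower, a limit of 20 points gave 2 higher and 4 lower, centring on the median gene gave 5 higher, and keeping shares of at least 25% gave 2 higher and 8 lower. Without subcluster 4, an alternative chosen after seeing the data, 5 were higher and 5 lower. Centring left 5 lower values in the 17 other clusters but lost Cxcl9 in cluster 17 and added Pf4 in cluster 0. In these clusters 5 values were lower, against 2 with a limit of 20 points, 3 on the log2 ratio and 3 on the log2 odds of shares. Genes of the pathway lists had 21 values higher and 14 lower in fibroblasts, where 17.6% of all values were higher and 15.6% lower. These lists held 24 values for receptors, 4 for other ligands, 37 for the NF-kappaB route, 21 for the interferon gamma route and 12 for processing enzymes. Their counts were 31 higher and 26 lower at 5 points, 11 higher and 5 lower at 20 points, and 12 higher and 13 lower without subcluster 4. In the other clusters the same lists held 9, 0, 30, 19 and 2 values in that order. Of these, 26 were higher and 18 lower, with 11 and 10 at 20 points, where 34.1% of all values were higher and 38.9% lower. No paired analysis was possible because there was 1 library per genotype, and leaving out a library leaves no comparison. Cell numbers and depths, which the tables do not give, limit every share, most of all in subcluster 4 and clusters 10, 17 and 18.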

Other observations

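Of 5 T cell markers 3 were listed in the fibroblast subclusters, with summed shares of 24.1, 23.4, 22.5 and 13.0 in control and 31.2, 73.8, 70.0 and 71.5 in the library labelled depleted (subclusters 0, 3, 4 and 5), and Cd3d, a T cell receptor chain, was counted in 13% and 42.9% of cells of subcluster 5 but in 11.7% and 9.4% of cells of subcluster 0. Gzma, a granule protease of killer cells, was counted in 10.3%, 16.7%, 12.5% and 17.4% of control cells and in 0%, 4.3%, 0% and 0% of cells of the library labelled depleted.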
